A study of Mus musculus with 4 samples.

Results

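The nuclear receptors for retinoic acid and the proteins that switch them were measured in airway smooth muscle sorted from adult mouse lung. The genes were Rara, Rarb and Rarg, which encode the retinoic acid receptors, Rxra, Rxrb and Rxrg, which encode the retinoid X receptors, and the coregulator genes Ncor1, Nrip1 and Ncoa1. They were chosen by gene symbol, and all 9 were found among 23740 named genes. For 8 of them the platform annotation gave the symbol. Ncor1 was named through its Entrez number, because the annotation does not list that probe set. The mice carried the transgenes Acta2-hrGFP, a green reporter driven by the smooth muscle actin promoter, and Cspg4-DsRED, a red reporter of pericytes and vascular smooth muscle, and green cells without red were sorted by flow cytometry. Each condition was measured on 1 expression array that held the pooled RNA of 3 mice, 4 arrays in all. VAS mice ate routine food with 15 IU of vitamin A per gram. VAD mice ate food with less than 0.1 IU per gram, for 3 days by their own label and 5 days by another sentence of the protocol. CTR mice ate powdered, vitamin A-sufficient food mixed with corn oil as vehicle for 3 days. BMS mice ate the same powder for 3 days with 5 mcg per gram of BMS, a drug that blocks every retinoic acid receptor. Levels are on the log2 scale after RMA (robust multi-array averaging, the authors' normalization), so a difference of 1 is a doubling. With 1 pooled array per condition there is no spread between mice, and "higher" and "lower" describe these arrays.

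Retinoic acid, made inside cells from vitamin A, enters the nucleus and binds a retinoic acid receptor that sits on DNA as a pair with a retinoid X receptor. Without ligand the pair holds corepressors such as NCoR1, which brings histone deacetylase and keeps the gene quiet. Ligand releases the corepressor and draws in coactivators such as NCoA1 (also called SRC-1), while NRIP1 (RIP140) binds the liganded receptor and dampens it. An antagonist occupies the receptor without allowing that exchange. Rarb is itself a target in many tissues, since its promoter carries an element to which the receptor pair binds. In mice, too little vitamin A during lung development is known to leave the airways with excess smooth muscle, and the comparisons here ask how adult airway muscle depends on the same signal.

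The element in the Rarb promoter is shown because Rarb is the receptor gene best known for answering to retinoic acid through its own promoter. Direct repeats of the 6-base element AGGTCA or its near relatives, which were AGTTCA on the list as well as GGGTCA and also GGTTCA, spaced by 1, 2 or 5 bases, were searched on both strands of RefSeq promoter windows running from 250 bases before to 50 bases after each start. The 9 genes had 18 such windows, and 1 of them, that of Rarb, held a repeat. In the lines below, all from GRCm38.p6 and written on the strand of the gene, capitals mark the repeat in Rarb and the lone element in Rarg. The Rarb stretch is chr14:16575477-16575579 on the minus strand, with the repeat at bases 53 to 37 before the start. The Rarg stretch is chr15:102257717-102257772 on the minus strand and shows, for contrast, the lone element found in the windows of Rarg, read here from the opposite strand as TGACCT.
Rarb: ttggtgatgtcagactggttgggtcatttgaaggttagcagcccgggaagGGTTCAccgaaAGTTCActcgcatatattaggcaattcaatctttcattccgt
Rarg: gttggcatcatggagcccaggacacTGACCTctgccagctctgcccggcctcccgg
The Rarb repeat has a spacing of 5 bases, and no other repeat overlapped it. A further GGGTCA upstream of it, at none of these spacings, is left in lower case. Such a repeat occurred in 32 of 32851 mouse windows (0.0974%), and any of the 3 spacings in 193 (0.588%). A lone element was common, in 43.7% of all windows and in 9 of the 18 of these genes. A match is a description of letters and does not show binding in these cells, and the absence of a match says only that these letters are not in the window.

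The arrays held smooth muscle RNA, and with no unsorted array the enrichment by the sort was not measured. All 13 listed smooth muscle markers passed the filter on low values, and their mean level was between 10.72 and 11.02 on the 4 arrays. Other cells left RNA too. Fibroblast markers had mean levels of 10.08, 10.01, 9.52 and 10.40 in VAS, VAD, CTR and BMS, with 14 of 14 past the filter. Of the alveolar epithelium markers 5 of 10 passed the filter, and of the cardiac muscle markers 3 of 7, where 53.5% of all named genes did. Those counts alone therefore do not show RNA of these cells. Fewer cells of a type and less RNA per cell cannot be told apart in pooled tissue cells. The 4 arrays correlated at a Pearson r of 0.987 to 0.992 across probe sets, which are not independent replicates.

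**Figure D1:**
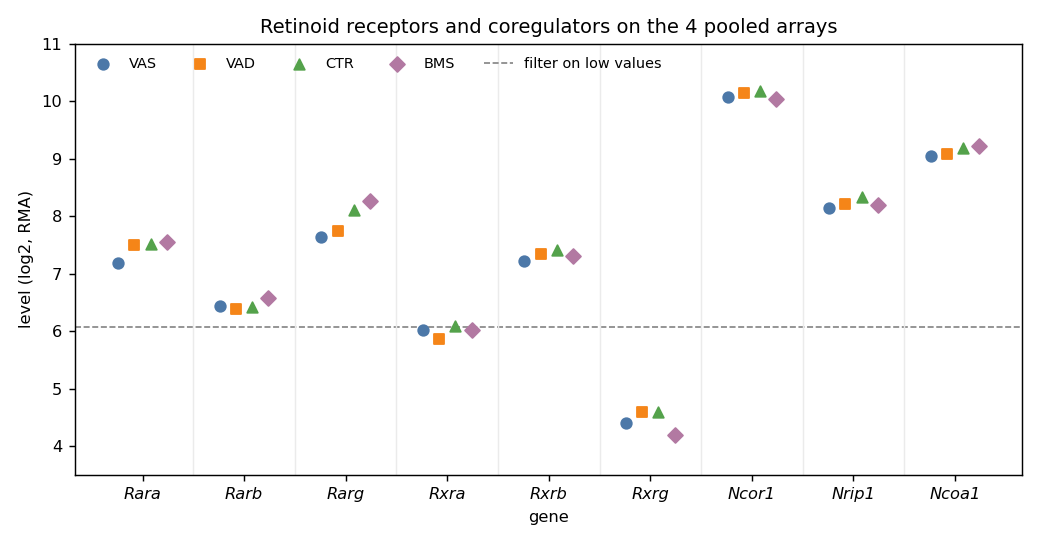
Level of each gene (log2, RMA) on the arrays VAS, VAD, CTR and BMS; each point is 1 pooled array, so there are no error bars, and the dashed line is the filter on low values at 6.072. Rarg steps up from the VAS and VAD arrays (7.64 and 7.75) to CTR and BMS (8.11 and 8.26), Rxrg stays below the line, and points should be compared within a gene, since probe sets of different genes are not on a common scale.

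Rara (Entrez gene 19401), the most widely expressed of the retinoic acid receptors in mammalian tissues, stood at 7.19 in VAS, 7.50 in VAD, 7.52 in CTR and 7.55 in BMS. VAS was the low array and the other 3 lay close together. VAD minus VAS was therefore 0.31, a 1.24-fold difference, and CTR minus VAS was 0.33, while BMS minus CTR was 0.03. The VAD value was 0.02 below the other control, so the diet difference was not seen against CTR.

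Rarb (218772), the receptor gene with the repeat shown above, stood at 6.43 in VAS, 6.39 in VAD, 6.42 in CTR and 6.58 in BMS. BMS was the high array, by 1.12-fold over CTR, and the other 3 lay close together. VAD minus VAS was -0.03 and CTR minus VAS was -0.0011. Among all genes past the filter, 48.6% were at least as far apart as Rarb in BMS minus CTR, and 88.2% in VAD minus VAS. In the diet experiment, this receptor gene known for answering to its own ligand thus differed less between treated and control arrays than the typical gene. In the antagonist experiment Rarb differed about as much as the typical gene. Its values, 6.39 to 6.58, were not far above the filter at 6.072, and its signal over background is unknown.

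Rarg (19411), the receptor best known from skin and cartilage, had the widest spread of the 9 genes. It stood at 7.64 in VAS, 7.75 in VAD, 8.11 in CTR and 8.26 in BMS. Both arrays of the antagonist experiment lay above both arrays of the diet experiment. Within the experiments, VAD minus VAS was 0.11 and BMS minus CTR was 0.15, both small beside CTR minus VAS at 0.47, a 1.38-fold difference. BMS minus VAS was 0.62, the value among these genes that passed 1.5-fold, and it joins arrays of different experiments.

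The retinoid X receptors are the partners that the retinoic acid receptors share with the vitamin D, thyroid hormone, PPAR and LXR receptors. Rxra (20181) stood at 6.02 in VAS, 5.87 in VAD, 6.09 in CTR and 6.02 in BMS. VAS and BMS had the same value to 6 decimals, 6.017125, as did 69 of 25206 probe sets on those arrays. The highest Rxra value was only 0.014 above the filter. Rxrb (20182) stood at 7.22, 7.35, 7.42 and 7.31 in the same order, with the treated arrays on opposite sides of their controls (0.13 and -0.11). Rxrg (20183), which is found mainly in muscle and brain, stood at 4.41, 4.60, 4.60 and 4.19. It was below the filter on every array and therefore entered only the counts given over all 9 genes. Its BMS minus CTR value of -0.41 was the widest of the 9 genes within an experiment. Whether such a level is above background is not known without scanner intensities.

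The coregulators varied least. Ncor1 (20185), the corepressor, stood at 10.08 in VAS, 10.15 in VAD, 10.19 in CTR and 10.04 in BMS, a range of 0.14 that 90.6% of genes equalled or exceeded. Nrip1 (268903), the ligand-dependent corepressor, stood at 8.14, 8.21, 8.33 and 8.20. Ncoa1 (17977), the coactivator, stood at 9.05, 9.08, 9.19 and 9.23. CTR was the high array for Ncor1 and Nrip1 and BMS for Ncoa1. No treated array differed from the control of its experiment by more than 0.14 for any of the 3.

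In the diet comparison, VAD against VAS, none of the 8 genes past the filter was 1.5-fold apart, where 3.57% of all 12693 genes were. Their differences ran from -0.15 for Rxra to 0.31 for Rara, with a median of 0.07 beside 0.008 over all genes. Counting Rxrg, 7 of the 9 genes were above 0, where 51.5% of all genes past the filter were. Against CTR in place of VAS all 9 were below 0, with a median of -0.09 over the 8 beside 0.004 over all genes. Several were close to 0, at -0.01 for Rxrg, -0.02 for Rara and -0.03 for Rarb. The share of all genes below 0 in VAD minus CTR was not counted. The direction of the member differences thus depended on the control chosen. In VAD minus VAS the median absolute difference was 0.09 for the 8 genes and 0.14 for all genes.

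In the antagonist comparison, BMS against CTR, again none of the 8 was 1.5-fold apart, where 4.99% of all genes were. Differences ran from -0.14 for Ncor1 to 0.16 for Rarb, with a median of -0.02 beside 0.009. Of the 9 genes 4 were above 0, where 51.6% of genes were. The median absolute difference was 0.12 for the 8 genes and 0.15 for all genes. Among the receptors and coregulators past the filter, no difference with BMS was therefore large beside those of the other genes on the same arrays.

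**Figure D2:**
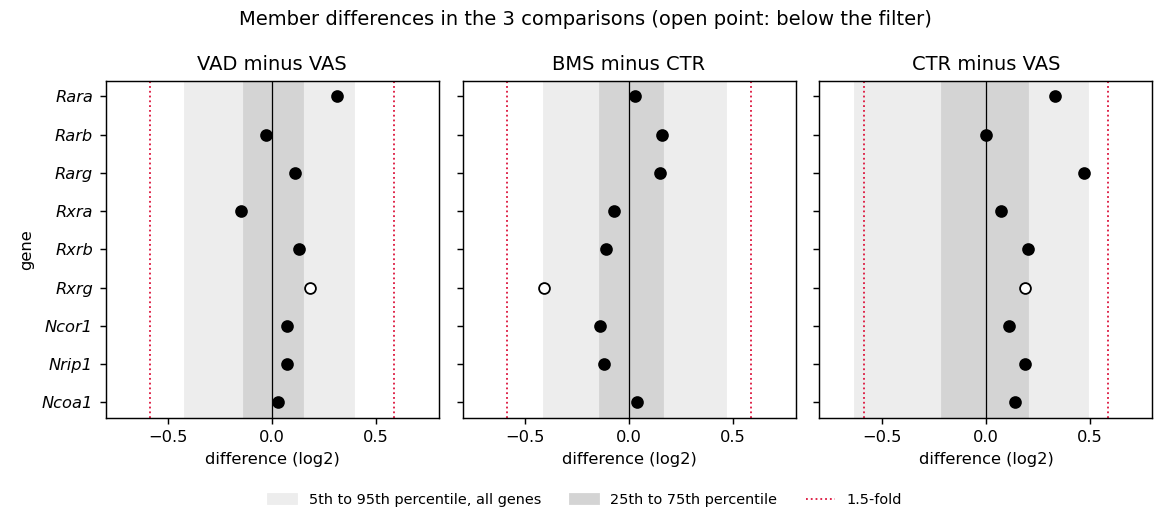
Difference in level (log2) for each gene in VAD minus VAS, BMS minus CTR and CTR minus VAS; filled points passed the filter, the open point (Rxrg) did not, grey bands give the spread of all genes past the filter and dotted lines mark 1.5-fold. No point reaches a dotted line, and the points farthest to the right are Rarg and Rara in CTR minus VAS, at 0.47 and 0.33.

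The diet and antagonist comparisons share no array, so they can be set against each other. Of the 8 genes, 4 differed in the same direction in both, Rara, Rarg and Ncoa1 upward and Rxra downward, where 48.8% of all genes had the same direction. The BMS difference of Rara turned to -0.0038 when quantile normalization was run again, which leaves Rarg, Ncoa1 and Rxra. The upward directions also rest on the control chosen, since VAD stood below CTR by -0.02 for Rara, -0.36 for Rarg and -0.11 for Ncoa1, and against the mean of both controls Rarg (-0.12) and Ncoa1 (-0.04) were lower in VAD. For 0 of the 8 did both treated arrays lie on 1 side of both controls, where 26.1% of all genes did. A limma fit across all 12693 genes, with VAD and BMS against VAS and CTR and the experiment as a block, was the one test with more than 1 array a side. It called no gene at an adjusted p of 0.05 (Benjamini-Hochberg), and 487 genes (3.84%) had an unadjusted p under 0.05. No member was among those 487, and for each of the 8 the adjusted p from limma was 1. The largest estimate was Rara, 0.17 higher in treated arrays with a standard error of 0.14, followed by Rarg with 0.13 ± 0.13 (SE). The 95% intervals of all 8 together spanned -0.45 to 0.54, so in this fit each lay inside 1.5-fold (0.585) in either direction. That depended on the block. Without it the interval of Rarg ran from -0.499 to 0.76 and that of Rara from -0.245 to 0.588, both past 1.5-fold. The intervals with the block rest on 1 residual degree of freedom and a prior of 3.87 that limma took from the spread of all genes. They treat the diet and the drug as 1 kind of treatment.

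**Figure D3:**
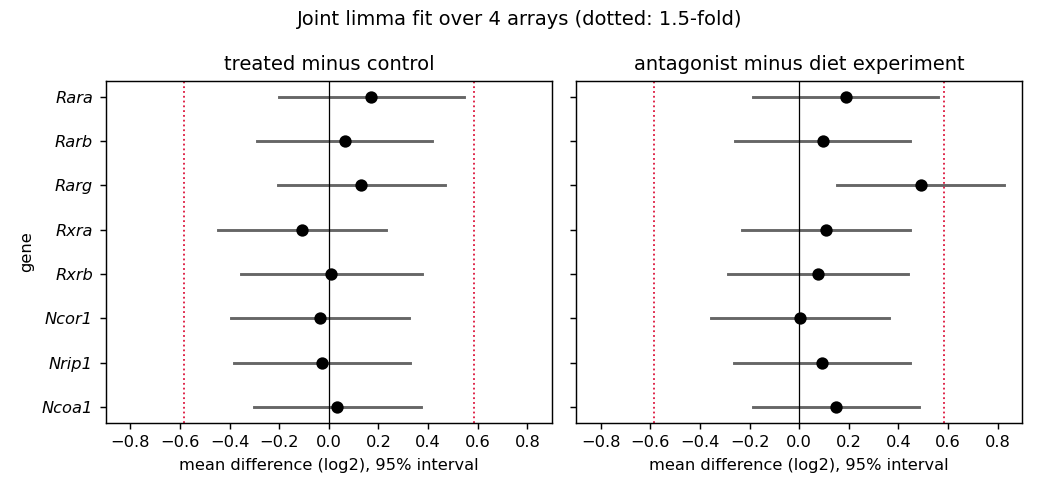
Mean difference (log2) of the 8 genes past the filter from the joint limma fit over 4 arrays, for treated against control arrays (left) and for the antagonist against the diet experiment (right); bars are 95% intervals and dotted lines mark 1.5-fold. Every interval on the left includes 0. On the right Rarg runs from 0.15 to 0.83, with an adjusted p of 0.336, and that panel was chosen after the Rarg values were seen.

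By the median, the differences of the 8 genes past the filter were wider between the control arrays, CTR against VAS, as were those of all genes. Rarb, Ncor1 and Rxra went the other way. Rarb and Ncor1 differed by 0.16 and -0.14 in BMS minus CTR, and Rxra by -0.15 in VAD minus VAS. In CTR minus VAS these genes differed by -0.0011, 0.11 and 0.07 in that order. In CTR minus VAS the median absolute difference was 0.16 for the 8 genes and 0.21 for all genes. These controls were both vitamin A-sufficient and differed in experiment, food form, vehicle and pool of mice, which cannot be told apart. Here too none of the 8 genes was 1.5-fold apart, where 8.53% of all genes were. At a lower threshold, a log2 difference of 0.322, there were 2 of the 8, Rarg and Rara. In either direction 3800 of all 12693 genes were that far apart. Rarg and Rara were both higher in CTR, where 14% of genes were higher by that much. Rara passed narrowly at 0.325 and stood at 0.30, below that threshold, with cyclic loess normalization. Of the 9 genes, 8 were higher in CTR (Rarb too with quantile normalization run again, by 0.043), where 50.4% of genes past the filter were. The median of the 8 was 0.16 beside 0.002 for all genes. All 9 had their highest value on an array of the antagonist experiment, 5 on CTR and 4 on BMS, where 53.9% of genes did, and 5 of the 8 had their lowest value on VAS, where 30.5% of genes did. Both arrays of the antagonist experiment stood above both of the diet experiment for Rara, Rarg and Ncoa1, 3 of 8, where 23.8% of all genes did.

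Because Rarg followed the experiment rather than the treatment, the experiment term of the same limma fit was read as well, a choice made after its values were seen. Rarg was 0.49 ± 0.13 (SE) higher in the antagonist experiment, with a 95% interval of 0.15 to 0.83, an unadjusted p of 0.014 and an adjusted p of 0.336 from limma. The other 7 genes had estimates from 0.0030 (Ncor1) to 0.19 (Rara), each with an interval that included 0. Of all genes, 0 passed an adjusted p of 0.05 for the experiment and 1395 (11%) had an unadjusted p under 0.05, so Rarg was among the latter and did not pass adjustment. Markers of other cells followed the experiment too. The 9 pericyte and vascular muscle markers, all past the filter, had mean levels of 9.23 and 9.33 in VAS and VAD against 9.65 and 9.51 in CTR and BMS. The 12 lymphocyte and granulocyte markers, of which 6 passed the filter, had 6.45 and 6.36 against 5.75 and 5.77. The part of other cell types in the Rarg values was not tested.

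Other genes of the pathway were read from lists of coregulators, receptors and targets, 75 genes besides the 9, of which all were measured and 55 passed the filter. In VAD minus VAS 1 of these was 1.5-fold higher and 2 were 1.5-fold lower, 1.8% and 3.6%, where 1.43% and 2.14% of all genes were. In BMS minus CTR 2 were higher and 0 lower, where 3.13% and 1.86% of all genes were. In CTR minus VAS 0 were higher and 1 was lower, where 2.62% and 5.91% were. These shares rest on a few genes each.

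Of the other coactivators, 14 of 15 passed the filter. Ncoa2 and Ncoa3, the closest relatives of Ncoa1, differed by 0.17 and 0.22 in VAD minus VAS, by -0.10 and -0.07 in BMS minus CTR, and by 0.36 and 0.33 in CTR minus VAS. Like Ncoa1, they were lowest on the VAS array. Ppargc1a, the PGC-1 alpha coactivator of mitochondrial genes, was the member past 1.5-fold. It stood at 7.75 in VAS, 7.0 in VAD, 6.85 in CTR and 6.61 in BMS. VAS was the high array, and the difference was -0.75 in VAD minus VAS, -0.24 in BMS minus CTR and -0.89 in CTR minus VAS. Its joint limma estimate was -0.49 ± 0.17 (SE), with an unadjusted p of 0.037 and an adjusted p of 1. Of the 15 other corepressors listed, 14 passed the filter and none was 1.5-fold apart in any of the 3 comparisons. Their medians were 0.04 in VAD minus VAS and 0.16 in CTR minus VAS, beside 0.07 and 0.11 for Ncor1.

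Of 13 other receptors that pair with retinoid X receptors, 7 passed the filter. Thrb, a thyroid hormone receptor, was the member past 1.5-fold. It stood at 7.20 in VAS, 6.54 in VAD, 7.04 in CTR and 7.07 in BMS, so VAD was the low array, 0.66 below VAS and 0.50 below CTR. Nr1h3, the oxysterol receptor LXR alpha, was 0.56 above its VAS level in CTR, and its treated arrays differed from their own controls by 0.25 (VAD) and -0.26 (BMS). Vdr and Pparg lay below the filter on all arrays. Of the orphan receptors that can bind the same DNA repeats, 6 of 10 passed the filter and none was 1.5-fold apart in these comparisons. Nr2f1 (COUP-TFI), which can repress genes with retinoic acid elements, was 0.39 higher in BMS than in CTR, while Nr2f2 (COUP-TFII) differed by 0.07.

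Downstream of the receptors, 15 of 21 classical target genes, Rarb among them, passed the filter, with a median of -0.03 in VAD minus VAS and again in BMS minus CTR. In VAD minus VAS 1 was 1.5-fold higher, Dhrs3, which reduces retinaldehyde and limits retinoic acid formation, at 9.30 in VAS and 10.34 in VAD. In BMS it stood at 10.20 against 9.63 in CTR, a difference of 0.56 that missed 1.5-fold. Its limma estimate was 0.80 ± 0.17 (SE), with an unadjusted p of 0.005 and an adjusted p of 1. In BMS minus CTR 2 were 1.5-fold higher, Ret, a receptor tyrosine kinase, by 1.07 and the homeobox gene Meis2 by 0.81. In VAD minus VAS Ret and Meis2 differed by 0.20 and -0.34. Against VAS in place of CTR, BMS was higher by 1.41 for Ret and by 0.28 for Meis2, whose lowest value was in CTR (8.63). Fibroblast markers were higher in BMS than in CTR as well, 14 of 14 with a median of 0.56 and 6 of them 2-fold or more. In CTR minus VAS their median was -0.38, with 11 of 14 below 0. In BMS minus VAS it was 0.25, with 11 above 0 and 3 below, and 1 was at least 2-fold higher. The part of fibroblast RNA in the Ret and Meis2 values was not tested. Cyp26b1, which degrades retinoic acid, differed by 0.14 in VAD and 0.12 in BMS from the control of each, beside -0.03 and 0.16 for Rarb. Among the carriers of retinoic acid, Crabp2, which brings retinoic acid to the nucleus, differed by 0.25 in VAD and -0.04 in BMS from the control of each, and Crabp1 lay below the filter on all arrays.

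**Figure D4:**
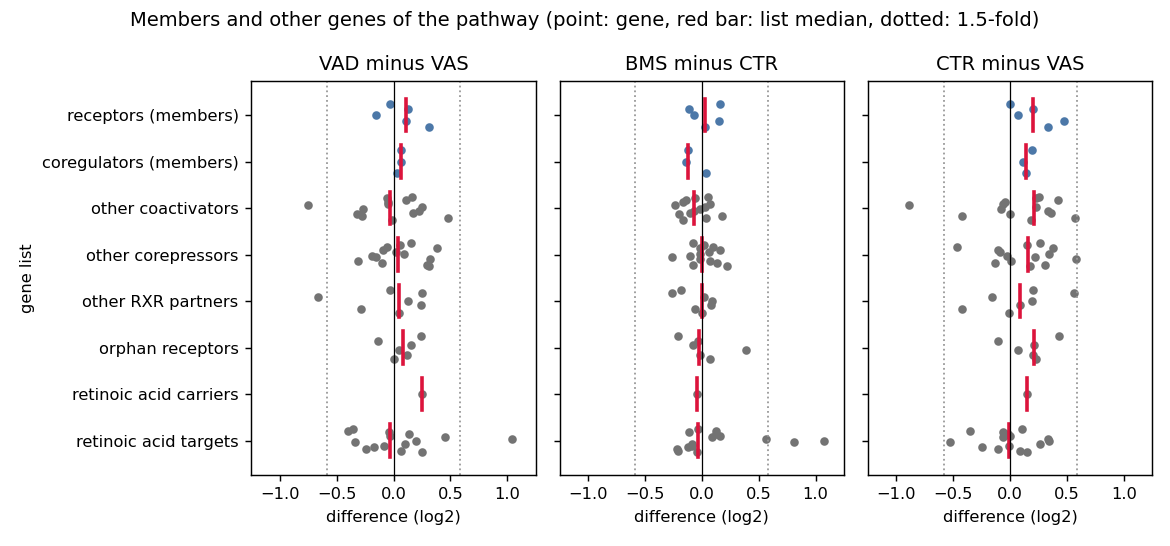
Difference (log2) of each gene past the filter in VAD minus VAS, BMS minus CTR and CTR minus VAS, by list; each point is a gene, red bars are list medians, blue points are the genes of the 9 that passed the filter and dotted lines mark 1.5-fold. The receptors and coregulators sit between -0.15 and 0.47 in all 3 panels, while points past the lines belong to other coactivators (Ppargc1a), receptor partners (Thrb) and targets (Dhrs3, Ret, Meis2).

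The genes nearest in pattern were found by the Euclidean distance between the 4 values of each gene, less its mean. With 4 arrays many genes share any mild pattern, and the likeness says nothing of shared function or control. Nearest to Rarg were Dchs1 (distance 0.022), Zdhhc7 (0.031) and Arhgap31 (0.039). Dchs1 stood at 7.64, 7.76, 8.12 and 8.25, the same step between the experiments, and 496 of 11780 genes lay within 0.25 of Rarg. Nearest to Rxrg were Rasa2 (0.031), Nhsl2 (0.037) and Peg3 (0.038), each low in BMS, with 938 of 11781 genes within 0.25. Nearest to Rara were Lztr1 (0.017), Tln2 (0.023) and BC034090 (0.025), each low in VAS, with 2802 of 11780 within 0.25.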

How the data were processed

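RNA of 4 pools of 3 mice was measured on 4 Affymetrix arrays. The deposited values are log2 levels that the authors made with RMA in affy 1.36.1 under R 2.15.1, per the submitters' processing notes. RMA gives arrays nearly equal distributions, which hides any change common to most genes. The genome build and whether other arrays were normalized together are not given in the sources used here. Of 25206 probe sets, 23185 were named by GEO's platform annotation, where each number equals the Entrez gene number, and 555 more, Ncor1 among them, by that number in the RefSeq table (GRCm38.p6). A further 1466 have no name here. A gene passed the filter if its highest value was at least 6.072, the median over named genes and arrays; 12693 (53.5%) did. Called means at least 1.5-fold apart, with no test, since each group is 1 array. The joint test was limma 3.58.1 (R 4.3.3). It was also run on simulated data whose noise came from limma's own fit, which does not show how well it finds changes in these arrays. Python 3.11.15, numpy 2.4.6, pandas 2.3.3 and matplotlib 3.10.9 were used. Promoter sequences are from RefSeq, GRCm38.p6; protein motifs were planned and not analysed here. Some listed genes are not reported here. The members, lists and tests were chosen with earlier results of these data known. Named genes are the 9 members, list genes past 1.5-fold in a comparison (up to 4 a list), a fixed set of well-known pathway genes, and the 3 nearest patterns of the 3 members with the widest range, without predicted genes, Riken clones and small RNAs. Alternatives covered the fold, the filter, the normalization, the control array, the limma settings and leaving out arrays.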

Additional observations from a re-analysis of the deposited data

How the results depend on the processing

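The absence of members past 1.5-fold held in each of the 3 comparisons under no filter, quantile normalization run again and cyclic loess. It also held for VAD and BMS against the mean of both controls. A 75th percentile filter (7.691), 2-fold and, added after seeing the data, platform names only could not add a member. Their count of 0 was fixed in advance. With VAS in place of CTR, 1 member (Rarg, 0.62) passed 1.5-fold in BMS, and at a log2 difference of 0.322, 2 members passed in CTR minus VAS. Renormalizing moved the 27 member differences by at most 0.04, and 2 of 27 changed sign with quantile normalization, Rara in BMS minus CTR (-0.0038) and Rarb in CTR minus VAS (0.043), and 0 with cyclic loess. The control mattered more: against the other experiment's control 10 of 18 member differences changed sign and the largest move was 0.47, and against the mean of both controls 3 of 18 and 0.23. Counts over all genes moved more. For VAD minus VAS, 453 genes became 82 at 2-fold, 2103 at 0.322 on the log2 scale, 818 with no filter, 214 with the 75th percentile filter and 799 against CTR. For BMS minus CTR, 633 became 170, 2389 and 314 at 2-fold, 0.322 and the 75th percentile filter, and 1088 against VAS. For CTR minus VAS, 1083 became 257, 3800 and 554. The direction turned with the control: 181 higher and 272 lower in VAD became 550 and 249, and 397 and 236 in BMS became 405 and 683. The limma fit called 0 genes with every setting, 0 to 0 with each array left out; those last fits drop the experiment block and leave 1 side with 1 array, assumed to vary like the rest. With 1 or 2 residual degrees of freedom these zeros say nothing about stability. The block pairs each treated array with the control of its experiment, the only pairing the labels give; 0 genes were called without it too. The number of arrays limits the precision, and signal over background is unknown.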
